A study of Mus musculus with 8 samples.

Results

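Potassium channel genes were taken as every gene of the deposited feature list whose symbol is Kcn followed by family letters and a number, except *Kcnk2* and *Kcnk10*. The rule uses the symbol alone and gave 90 of 33696 genes. By the family letters, 40 were classed as voltage-gated alpha subunits, 15 as inward rectifiers and 12 as two-pore domain channels. A further 8 were classed as calcium- or sodium-activated channels and 15 as auxiliary subunits. The letters and not the gating of each channel set the class, so *Kcnu1* is among the 8. Each of the 90 genes was followed across the cell types of the adult mouse optic nerve (ON), along the oligodendrocyte (OL) lineage and between genotypes.

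Potassium channels let potassium ions cross the membrane down their gradient and so set the resting potential and shorten action potentials. A voltage-gated channel opens on depolarization, an inward rectifier passes potassium near rest, a two-pore domain channel carries a leak current, and calcium- or sodium-activated channels follow the ion inside the cell. In white matter, firing axons release potassium, and glial channels, with *Kcnj10* (Kir4.1) as the best known, take part in clearing it. Oligodendrocyte precursor cells (OPCs) are known for A-type and delayed rectifier currents that are lost as they differentiate.

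Single-nucleus RNA-seq was performed on ONs of female mice at P120 on a C57BL/6J background. The 4 control libraries (replicates 1 to 4) came from *Piezo2f/f* mice without Cre, and the 4 libraries labelled cKO (replicates 10 to 13) from *Olig2-cre;Piezo2f/f* mice, so that both groups carry the floxed *Piezo2* alleles. Each library pooled 6 ONs of 3 mice, and a library is the replicate here. Cre is a knock-in in the only exon of *Olig2*, which removes an *Olig2* allele in the Cre carriers, and *Olig2* is also used by progenitors of cells other than OLs, so deletion need not be limited to the OL lineage.

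To show what the members share at the sequence level, the coding sequences of GENCODE M39 (GRCm39) were searched for the 5 codons of the potassium selectivity filter, a run of threonine, any residue, glycine, tyrosine or phenylalanine, and glycine that lines the pore. The motif was found in 64 of 90 members (71.1%), against 227 of 21770 coding sequences of all genes (1.04%). It was present in 12 of 12 two-pore domain genes, 9 of them with at least 2 copies, in 14 of 15 inward rectifiers, in 33 of 40 voltage-gated genes and in 5 of 8 calcium- or sodium-activated genes. None of the 15 auxiliary subunits, which do not form the pore, held it. The 7 voltage-gated genes without a match are all of the Kcnh family and the 3 calcium-activated ones are *Kcnn1*, *Kcnn2* and *Kcnn3*. No match says only that these letters are not there. To show the letters behind this count, the stretches of 6 members called higher in OLs, OPCs, astrocytes, myeloid cells or fibroblasts than in the mean of the other types are given here, each with 30 coding bases on either side and the filter codons in capitals. They lie in coding exons at chr6:126619161-126619235 (*Kcna1*, minus strand), chr6:126715580-126715654 (*Kcna6*, minus strand), chr12:100027605-100027679 (*Kcnk13*, plus strand, its second pore), chr2:55327609-55327683 (*Kcnj3*, plus strand), chr14:23578451-23578525 (*Kcnma1*, minus strand) and chr1:140352986-140353060 (*Kcnt2*, plus strand). The filter codons of *Kcnd2* are split by an intron and are not shown.
Kcna1: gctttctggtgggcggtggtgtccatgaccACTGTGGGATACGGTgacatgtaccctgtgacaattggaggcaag
Kcna6: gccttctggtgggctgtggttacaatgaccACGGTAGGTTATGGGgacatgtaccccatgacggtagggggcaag
Kcnk13: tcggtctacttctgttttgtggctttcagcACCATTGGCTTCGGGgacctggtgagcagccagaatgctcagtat
Kcnj3: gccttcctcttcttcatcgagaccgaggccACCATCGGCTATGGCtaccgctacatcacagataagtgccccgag
Kcnma1: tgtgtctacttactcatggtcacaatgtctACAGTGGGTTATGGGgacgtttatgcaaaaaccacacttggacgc
Kcnt2: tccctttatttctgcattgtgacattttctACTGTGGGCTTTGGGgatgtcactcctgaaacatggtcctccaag
*Kcna1* and *Kcna6* lie next to each other on chromosome 6, 61.95 kb apart on the same strand.

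A total of 37256 nuclei were retained, 16814 from control libraries and 20442 from libraries labelled cKO, 3488 to 6210 per library with a median of 2386 to 3313 unique molecular identifiers (UMIs) per nucleus. Libraries held 39628926 to 56541132 UMIs, and each of the 28 pairs of libraries shared 1 to 11 nuclear barcodes. Clusters made without the Kcn genes were named from marker genes as OLs (19342 nuclei), committed OPCs (155), OPCs (720), astrocytes (8168), fibroblasts (3209), endothelial cells (292), mural cells (60), myeloid cells (1365), T cells (133) and neurons (284), while 10.5% of control and 8.62% of cKO nuclei stayed unnamed. Of the OLs, 96 nuclei formed a cluster that was named from OL markers but shared 9 of its 10 leading genes with a fibroblast cluster. Leaving it out, an alternative chosen after seeing the data, gave the same counts of members called between cell types and between genotypes. Neurons, of which the nerve holds axons but not cell bodies, varied from 12 to 88 nuclei per library, and their source was not tested. Levels are in CPM, the UMIs of a gene scaled to the same total of UMIs of all genes, summed over the nuclei of a type in a library. *Piezo2*, the targeted gene, was at 507, 393, 403 and 496 CPM in OLs of the control libraries (replicates 1 to 4), against 532, 536, 569 and 522 CPM in cKO replicates 10 to 13 (log2 difference 0.25 ± 0.11 SE, edgeR adjusted p = 0.552). The counts cover the whole gene and do not isolate the deleted exons, so this does not check the label, and the second group is called the libraries labelled cKO. *Olig2* in OLs was at 24.0, 31.0, 40.3 and 27.5 CPM against 44.1, 51.8, 48.3 and 43.7 CPM (log2 difference 0.60 ± 0.14, adjusted p = 0.249 with edgeR and 0.0423 with DESeq2).

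In the comparison between cell types, each type was set against the mean of the other types on the log scale in the 4 control libraries, and a gene was called at an edgeR adjusted p under 0.05 and a log2 difference over 0.5 in size. Mural cells, with too few nuclei for replicated sums, are not among the 9 types compared, and statements on all or other types leave them out. Of the 90 members, 38 had enough counts to be tested among 10714 genes: 19 voltage-gated, 5 inward rectifier, 3 two-pore domain, 5 calcium- or sodium-activated and 6 auxiliary genes. A gene passed this filter by being high in at least 1 type, so the counts that follow describe these 38 members and not all 90. OPCs had 25 members called higher, where 21% of all genes tested were, and neurons 28 (background 27.9%). Astrocytes had 15 (28.8%), OLs 10 (27.9%), fibroblasts 10 (25.1%) and committed OPCs 9 (9.56%). The remaining types had few, with 5 in myeloid cells (23.2%), 3 in T cells (6.08%) and 2 in endothelial cells (17.4%). The highest mean level lay in neurons for 13 of the 38, in OPCs for 8, in OLs for 5, in fibroblasts and T cells for 3 each, in astrocytes and myeloid cells for 2 each and in committed OPCs and endothelial cells for 1 each.

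Members called lower numbered 5 in OLs (background 11.7%), 5 in astrocytes (9.55%), 7 in fibroblasts (9.64%), 7 in endothelial cells (9.08%), 6 in myeloid cells (12.1%), 2 in T cells (6.49%), 2 in neurons (15.5%), 1 in committed OPCs (3.86%) and 0 in OPCs (5.84%). These counts are limited by the contrast itself: a type with 0 UMIs has no lower bound on the log scale. Of the 38 members, 26 were at 0 in at least 1 type, and 0 of the 35 calls of lower were made where another type was at 0. With DESeq2, OLs had 31 members called in either direction (50.7% of all genes were), astrocytes 32 (46%) and myeloid cells 27 (45%). With limma on log2 CPM with a prior count of 2, an alternative chosen after seeing the data, the counts were 7 higher and 15 lower in OLs (15.9% and 10.8% of all genes), 11 and 8 in astrocytes (16.7% and 6.56%), 23 and 2 in OPCs (15.7% and 8.13%) and 27 and 2 in neurons (19.7% and 15.5%). Members called lower by limma numbered 24 in T cells (48.5% of all genes), 14 in committed OPCs (35.6%), 25 in endothelial cells (23.8%), 20 in myeloid cells (16.4%) and 12 in fibroblasts (7.77%). For the same reason log2 differences are given only for members detected in every type, and the others are given by their levels and adjusted p. Fewer nuclei of a type do not enter CPM, but a smaller share of nuclei expressing a gene and less RNA per nucleus cannot be told apart in sums.

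**Figure D1:**
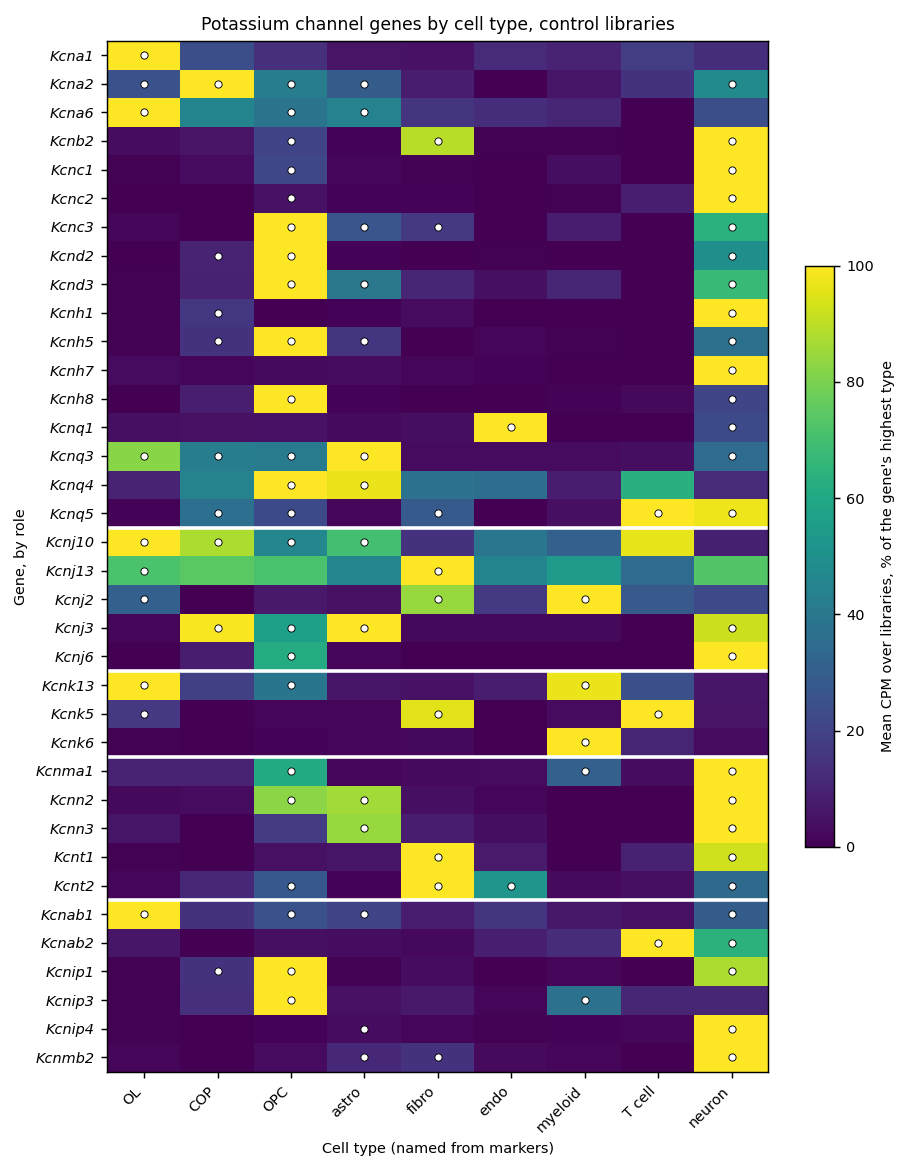
Levels of 36 of the 38 tested members in 9 cell types of the control libraries. Each row is a member, grouped by role, each column a cell type, and the color is the mean CPM over libraries as a percentage of the gene's highest type (4 libraries, 3 for T cells); 11 of those shown peak in neurons, 8 in OPCs and 5 in OLs.

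The Kv1 family gives fast and low-threshold potassium currents, and *Kcna1* (Kv1.1) and *Kcna2* (Kv1.2) are best known from the axon membrane beside the node of Ranvier. In the ON nuclei *Kcna1* was an OL gene. It was at 349, 284, 349 and 380 CPM in OLs of control replicates 1 to 4. The next type, committed OPCs, had a mean of 82.4 CPM (29.3 to 125), and the lowest OL library lay above every library of every other type. The log2 difference between OLs and the mean of the others was 3.59 ± 0.13 (adjusted p = 8.7e-29), and *Kcna1* was called lower in astrocytes (-1.50 ± 0.25, adjusted p = 1.6e-06) and fibroblasts (-1.61 ± 0.27, adjusted p = 2.2e-06), both lost with limma (adjusted p = 0.133 and 0.0827). Barcodes without a nucleus held *Kcna1* at 117 CPM, above all types but OLs. *Kcna6* (Kv1.6), its neighbor on chromosome 6, had the same highest type, with 145, 160, 173 and 216 CPM in OLs (adjusted p = 1.8e-26). Committed OPCs followed at 20.9 to 205 CPM, the latter in control replicate 4, and astrocytes at 63.9 to 92.7 CPM. Astrocytes were also called higher (adjusted p = 2.9e-09), at a mean under that of empty droplets (99.4 CPM), and did not overlap with OLs. *Kcna2* was low in OLs, with 13.4, 20.7, 15.1 and 16.9 CPM, and had its highest level in committed OPCs at 36.5 to 83.7 CPM (adjusted p = 1.3e-04). Endothelial cells had no UMI of *Kcna2*. OLs were called higher (adjusted p = 7.1e-03), which was lost with DESeq2 (adjusted p = 0.0932), with limma (adjusted p = 0.115) and without control replicate 3 (adjusted p = 0.0849). *Kcna3* (Kv1.3), a channel of T cells and microglia, was not seen in the 64 control T cells that entered sums (0 UMIs, which allows up to 35.3 CPM, counting error only). Its highest mean was 0.929 CPM in myeloid cells, from 1 UMI in 1 control library. OLs of all 8 libraries held 74 UMIs of *Kcna3*. *Kcnab1*, the Kvβ1 auxiliary subunit that binds Kv1 channels, was at 778, 790, 457 and 444 CPM in OLs (3.32 ± 0.16, adjusted p = 2.6e-24). The libraries fell in 2 pairs, and the lower pair exceeded the highest single library of the other 8 types with replicated sums, 239 CPM in neurons. The single pool of mural nuclei was at 508 CPM (55 UMIs, exact Poisson 95% interval 383 to 661, counting error only), above the lower pair. *Kcnab2* (Kvβ2) was instead highest in T cells, at 28.8 to 99.7 CPM in 3 libraries (adjusted p = 3.5e-02), a call that was lost without any 1 of the 3 libraries (adjusted p = 0.0775 to 0.327).

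**Figure D2:**
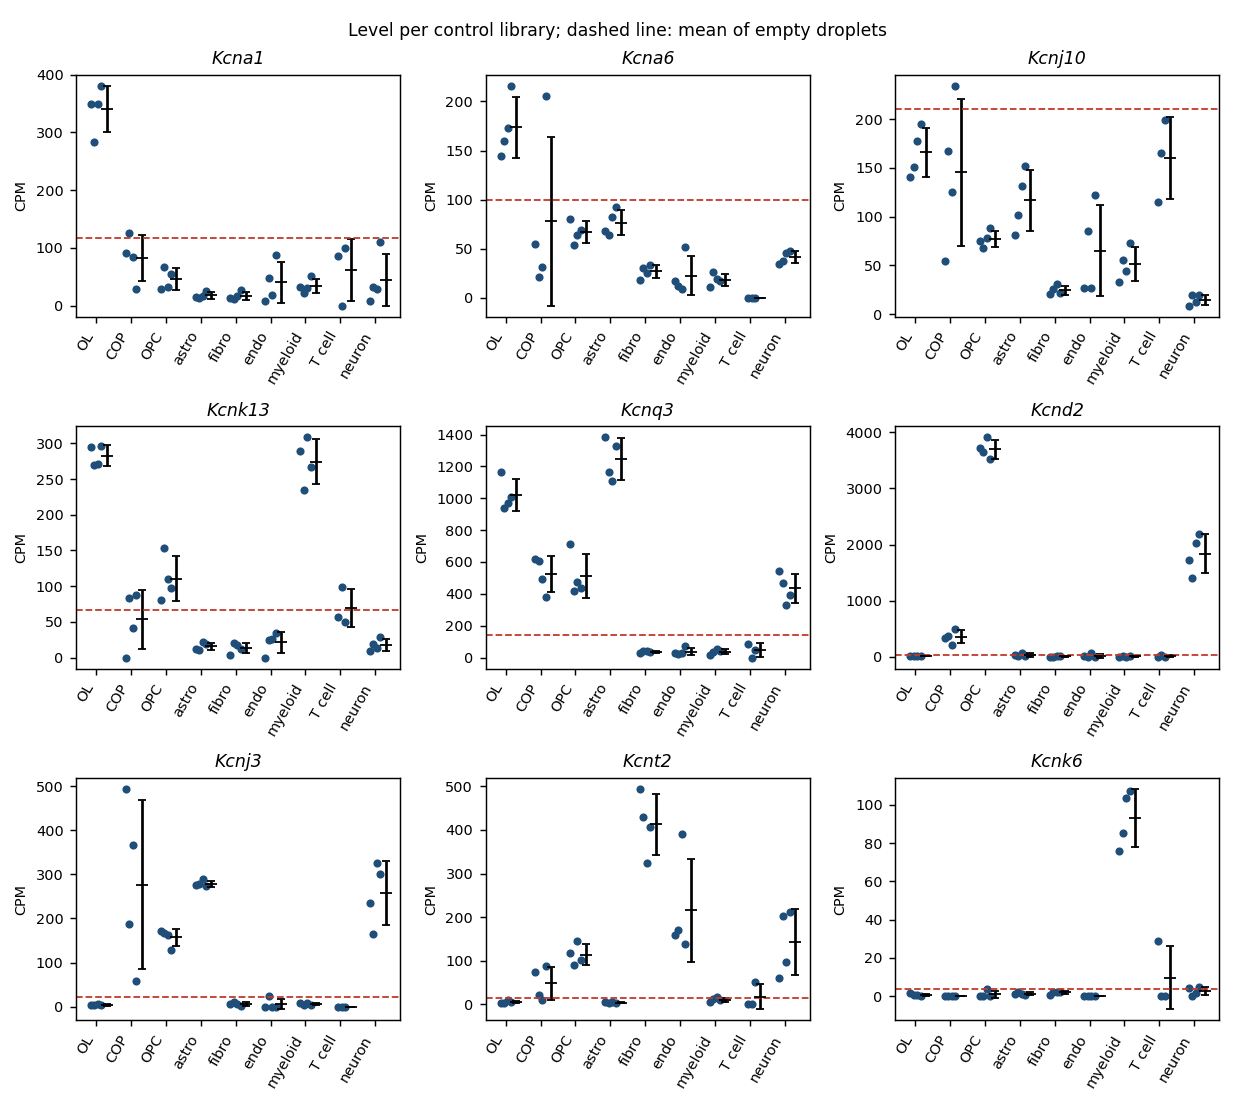
Levels of 9 potassium channel genes in 9 cell types of the control libraries, in CPM. Points are libraries (4 per type, 3 for T cells), bars the mean with SD, and the dashed line is the mean of empty droplets; *Kcnj10* in empty droplets (210 CPM) is above its mean in every type, while *Kcnd2* reaches a mean of 3698 CPM in OPCs.

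The Kcnq genes encode the Kv7 channels that carry the M current, a slow brake on firing. *Kcnq3* (Kv7.3) was shared by astrocytes, the OL lineage and neurons. Astrocytes had 1382, 1165, 1106 and 1329 CPM and OLs 1166, 942, 973 and 1006 CPM. These ranges overlapped, although astrocytes were higher than OLs in every control library. Both types were called higher (3.17 ± 0.13, adjusted p = 1.9e-27 in astrocytes, 3.08 ± 0.13, adjusted p = 4.0e-27 in OLs). OPCs had 420 to 713 CPM, committed OPCs 381 to 621 CPM and neurons 332 to 544 CPM, and all 3 were called higher as well. Fibroblasts, endothelial, myeloid and T cells had means of 34.8 to 45.4 CPM and were called lower. At least 1 UMI of *Kcnq3* was found in 81.7% ± 2.39 of OLs and 83.1% ± 4.97 of astrocytes, against 8.79% ± 2.81 of fibroblasts (SD, 4 libraries). With each nucleus thinned to 1000 UMIs these shares were 57.5%, 60.7% and 3.48%, with 340 OLs, 105 astrocytes and 59 fibroblasts of lower depth left out. *Kcnq5* (Kv7.5) was highest in T cells, at 489, 960 and 498 CPM in control replicates 2 to 4 (adjusted p = 7.4e-06) from 56 UMIs in all, and in neurons at 462 to 958 CPM (adjusted p = 3.6e-20). Fibroblasts, committed OPCs and OPCs were called higher as well, while OLs (2.77 to 13.1 CPM) were not. *Kcnq1* (Kv7.1) was called higher in endothelial cells, with 71.0, 12.1, 53.4 and 104 CPM (adjusted p = 4.2e-08), and in neurons.

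*Kcnd2* (Kv4.2) and *Kcnd3* (Kv4.3) carry the A-type current, and the Kcnip genes encode KChIPs, calcium-binding subunits that bring Kv4 channels to the membrane. *Kcnd2* marked OPCs, with 3719, 3643, 3910 and 3519 CPM in control replicates 1 to 4. Neurons came next at 1409 to 2198 CPM, and OLs had 8.99 to 19.8 CPM. The OPC difference was 6.90 ± 0.16 on the log2 scale (adjusted p = 7.2e-37) and the neuron difference 5.63 ± 0.18 (adjusted p = 1.1e-31). At least 1 UMI of *Kcnd2* was seen in 98.6% ± 1.41 of OPCs and 2.49% ± 0.919 of OLs (SD, 4 libraries), at median depths of 3401 and 2797 UMIs. After thinning to 1000 UMIs the shares were 93.1% and 1.05%, with 2 OPCs and 340 OLs left out. Fibroblasts, a type with very little *Kcnd2*, had 1.74% and 0.697%. The share of OLs was thus close to that of the type taken as background. *Kcnd3* was at 316 to 402 CPM in OPCs (adjusted p = 3.9e-22), 196 to 300 CPM in neurons and 113 to 170 CPM in astrocytes (adjusted p = 2.2e-15), and all 3 were called higher. In OLs it had 1.11 to 3.95 CPM. The KChIPs split by type. *Kcnip3* (KChIP3) was at 582, 461, 475 and 661 CPM in OPCs (4.39 ± 0.16, adjusted p = 3.8e-29) and at 153 to 249 CPM in myeloid cells (2.43 ± 0.20, adjusted p = 1.1e-14). It was called lower in OLs, at 3.08 to 5.14 CPM (-3.53 ± 0.46, adjusted p = 4.1e-09), which was lost without control replicate 1 (adjusted p = 1), where another type fell to 0. *Kcnip1* (KChIP1) was high in OPCs at 174 to 307 CPM (adjusted p = 1.9e-22) and in neurons at 151 to 390 CPM (adjusted p = 6.2e-21). *Kcnip4* (KChIP4) was a neuron gene, with 9393, 4880, 3575 and 5401 CPM (6.71 ± 0.17, adjusted p = 1.1e-35). Its highest library in any other type was 273 CPM, in astrocytes.

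Of the delayed rectifiers, *Kcnb2* (Kv2.2) was at 606, 562, 718 and 657 CPM in fibroblasts (adjusted p = 2.8e-26) and at 436 to 968 CPM in neurons (adjusted p = 1.4e-25). OPCs, at 113 to 199 CPM, were called higher too, and no other type exceeded 87.9 CPM in a library. *Kcnc2* (Kv3.2), of fast-spiking neurons, was at 454, 381, 527 and 517 CPM in neurons (adjusted p = 3.3e-28) and at no more than 86.3 CPM in a library of another type. The Kcnh genes encode the ether-à-go-go channels. *Kcnh8* was at 552, 429, 440 and 532 CPM in OPCs (adjusted p = 9.4e-28), above its 50.8 to 148 CPM in neurons without overlap. *Kcnh5* followed the same order, with 231, 226, 241 and 240 CPM in OPCs (adjusted p = 7.7e-25) and 47.9 to 137 CPM in neurons. *Kcnh7* was at 431 to 882 CPM in neurons (adjusted p = 1.3e-26) and at 46.1 CPM or less in libraries of the other types.

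Inward rectifiers are the channels most tied to potassium uptake by glia. *Kcnj10* was at 140, 151, 178 and 196 CPM in OLs and at 81.4, 101, 131 and 152 CPM in astrocytes of control replicates 1 to 4. OLs were higher than astrocytes in 4 of 4 libraries, although the ranges overlapped, and both types were called higher than the mean of the others (1.82 ± 0.10, adjusted p = 8.6e-23 in OLs, 0.98 ± 0.11, adjusted p = 5.0e-11 in astrocytes). Empty droplets held *Kcnj10* at 180 to 246 CPM, above the mean of every type, and how much of each level is free RNA was estimated by subtraction. With the ambient profile subtracted, the differences were 3.56 in OLs and 2.58 in astrocytes, both still called. T cells had 115 to 199 CPM of *Kcnj10* from 13 UMIs and were not called. Fibroblasts (-1.60 ± 0.17, adjusted p = 1.1e-11), myeloid cells and neurons (-2.46 ± 0.30, adjusted p = 8.2e-10) were called lower. *Kcnj16* (Kir5.1), the partner of Kir4.1 in astrocytes, was at 13.4, 13.5, 16.4 and 18.3 CPM in astrocytes, 16.1 to 40.7 CPM in OPCs and 0.139 to 2.71 CPM in OLs. It had too few counts for the test between types. *Kcnj3* (Kir3.1), a G protein-gated channel, was at 275, 278, 289 and 273 CPM in astrocytes (adjusted p = 7.0e-24). Neurons (165 to 326 CPM), OPCs (129 to 172 CPM) and committed OPCs (58.6 to 493 CPM) were called higher too, and OLs had 3.46 to 7.16 CPM. *Kcnj6* (Kir3.2), another member of the Kir3 group, was at 85.9 to 110 CPM in OPCs and 101 to 192 CPM in neurons, with a mean of 2.00 CPM in astrocytes. *Kcnj2* (Kir2.1), a channel of microglia and endothelium, was at 27.3 to 52.0 CPM in myeloid cells (adjusted p = 3.2e-07), 23.0 to 37.6 CPM in fibroblasts (adjusted p = 5.1e-09) and 8.31 to 14.3 CPM in OLs (adjusted p = 3.2e-03, 0.0923 with limma), while empty droplets had 10.0 to 15 CPM. *Kcnj8* (Kir6.1), the pore of the vascular KATP channel, was at 8.88 to 72.8 CPM in endothelial cells and too low for the test. Mural markers summed to 578 to 1263 CPM in endothelial cells of the control libraries, against 7000 CPM in the only control mural sum. Their part in the endothelial levels of *Kcnj8*, and of *Kcnt2* below, was not tested. The 60 mural nuclei of all libraries formed no replicated sum, and as a single pool they held *Kcnj8* at 351 CPM (38 UMIs, exact Poisson 95% interval 248 to 482, counting error only).

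Two-pore domain channels set the resting leak. *Kcnk13* (THIK-1), a microglial channel that controls surveillance and interleukin release, was at 289, 234, 308 and 266 CPM in myeloid cells (2.73 ± 0.18, adjusted p = 2.9e-18). OLs had 295, 269, 271 and 297 CPM (3.19 ± 0.14, adjusted p = 3.5e-26). The OL range lay within the myeloid range, whereas OPCs reached 80.4 to 154 CPM and astrocytes 11.3 to 22.1 CPM. Empty droplets had 61.1 to 71.7 CPM. *Kcnk6* (TWIK-2) was a myeloid gene, at 75.7, 85.4, 104 and 107 CPM (adjusted p = 5.0e-18), and the highest library of another type was 28.8 CPM in T cells. *Kcnk5* (TASK-2) was at 66.5 to 101 CPM in fibroblasts (adjusted p = 5.8e-18) and 49.8 to 132 CPM in T cells (7 UMIs, adjusted p = 2.4e-03, lost without control replicate 3 with 0.141), with 10.0 to 18 CPM in OLs (adjusted p = 2.9e-05). *Kcnk1* (TWIK-1), an astrocyte channel, was at 25.5, 27.3, 32.8 and 33.0 CPM in astrocytes and 24.1 to 50.9 CPM in OPCs, against 1.66 to 3.22 CPM in OLs, and did not enter the test.

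Among calcium- and sodium-activated channels, *Kcnma1* (BK), which opens on calcium and voltage, was highest in neurons at 755 to 942 CPM (4.03 ± 0.18, adjusted p = 1.2e-25). OPCs had 566, 515, 493 and 532 CPM (3.34 ± 0.19, adjusted p = 1.5e-20) and myeloid cells 251 to 279 CPM (1.87 ± 0.23, adjusted p = 7.8e-10). OLs lay between these and the rest at 67.4 to 101 CPM. *Kcnn2* (SK2) was at 132, 161, 132 and 109 CPM in astrocytes (adjusted p = 6.3e-22), 106 to 147 CPM in OPCs (adjusted p = 1.0e-15) and 72.8 to 216 CPM in neurons (adjusted p = 1.9e-17), with overlapping ranges, and had no UMI in myeloid or T cells. *Kcnn3* (SK3) was at 50.1 to 57.6 CPM in astrocytes (adjusted p = 1.3e-15) and 31.7 to 89.9 CPM in neurons. *Kcnn4* (KCa3.1), known from microglia, T cells and endothelium, had 14 UMIs in myeloid, 6 in endothelial and 1 in T cells and was not tested. *Kcnt2* (Slick), a sodium-activated channel, was at 493, 429, 325 and 406 CPM in fibroblasts (3.94 ± 0.18, adjusted p = 4.5e-25) and at 160, 170, 391 and 139 CPM in endothelial cells (2.83 ± 0.37, adjusted p = 1.3e-08). Its relative *Kcnt1* (Slack) was called higher in fibroblasts too, at 83.6 to 121 CPM (adjusted p = 4.8e-19), but in endothelial cells did not exceed 17.8 CPM. The fibroblast sums pool several clusters. *Kcnt1* was a leading gene of a fibroblast cluster of 986 nuclei, *Kcnt2* of another of 747 and *Kcnb2* of another of 1055. Whether these genes share nuclei was not tested. The mural pool held *Kcnt2* at 370 CPM (264 to 503).

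The 52 members that were not tested between types had a mean of at most 46.7 CPM in any of the 9 types with replicated sums, that of *Kcnj8* in endothelial cells. In the mural pool *Kcnj8* was higher (351 CPM), and *Kcne4*, an auxiliary subunit, was at 83.1 CPM (9 UMIs, 38.0 to 158). Of the 52, 35 entered no test at all, 9 had fewer than 10 UMIs over all nuclei, and *Kcnk16* had none. The pattern across types was compared with that of the libraries labelled cKO as a second set of libraries. The control libraries gave 107 calls of a member as higher in a type and the libraries labelled cKO 112, of which 97 were the same, or 90.7% and 86.6%. The agreement over all genes tested was not computed, so these shares and those by type are not a result about the members. By type the shared calls were 22 of 25 and 25 in OPCs, 28 of 28 and 31 in neurons, 14 of 15 and 16 in astrocytes, 9 of 10 and 11 in OLs, and 10 of 10 and 12 in fibroblasts. Committed OPCs shared 6 of 9 and 9, myeloid cells 5 of 5 and 5, and T cells 1 of 3 and 1. The T-cell call in both was *Kcnq5*.

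Along the OL lineage, OPCs, committed OPCs and OLs of all 8 libraries were compared with the library as a block, and 31 members were among 8736 genes tested. The filter kept members with enough counts in at least 1 stage, so what follows describes these 31 and not all 90. *Kcnj2* and *Kcnk5* were higher in OLs than in OPCs in 8 of 8 libraries, and *Kcnk3* and *Kcnc1* lower, but none of them entered the test. From OPC to OL, 21 members were called lower (26.2% of all genes were) and 6 higher (23.3%). The median log2 difference of the 31 was -3.44, against 0.05 over all genes tested. Between OPC and committed OPC 20 were lower (16.7%) and 4 higher (9.65%), and between committed OPC and OL 14 were lower (17.6%) and 8 higher (19.2%). The committed OPCs rest on 13 to 30 nuclei per library. Those of control replicate 4 (14 nuclei, 34122 UMIs) had an estimated share of ambient RNA of 0.568, against 0 to 0.180 in the other 7 libraries. In the OL lineage this share is estimated from astrocyte markers relative to empty droplets, so astrocyte RNA of any source enters it. Pituitary genes summed to 0 to 3677 CPM (median 1474) in control committed OPCs and 0 to 19.6 CPM in those labelled cKO. In control OPCs their median was 59.4 CPM. OL markers summed to 8596 to 15562 CPM in control committed OPCs and 2437 to 3376 CPM in control OPCs. Their part in the committed OPC values, here and between cell types, was not tested. Control replicate 4 gave the highest committed OPC level of *Kcna6* and the lowest of *Kcna1* and *Kcnj3*. Without it the first-step differences were 1.51 for *Kcna1* (adjusted p = 8.3e-06) and 1.55 for *Kcnj3* (adjusted p = 4.9e-11), and the second-step difference of *Kcna6* was 1.49 (adjusted p = 1.3e-06).

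Among the members called lower were the A-type channel genes *Kcnd2* and *Kcnd3* and the subunits *Kcnip1* and *Kcnip3*, while *Kcnip4* was not called from OPC to OL (-0.17 ± 0.19, adjusted p = 0.474). *Kcnd2* had 3296, 3605 and 3910 CPM (lowest, median and highest library) in OPCs, 126, 327 and 498 CPM in committed OPCs and 8.03, 10.7 and 19.8 CPM in OLs. The log2 difference was -3.75 ± 0.17 at the first step (adjusted p = 1.2e-26) and -4.58 ± 0.23 at the second (adjusted p = 1.6e-25), and none of the 3 ranges overlapped. From OPC to OL, *Kcnd2* differed by -8.33 ± 0.17 on the log2 scale (adjusted p = 8.6e-46), *Kcnh8* by -7.85 ± 0.15 (adjusted p = 2.4e-47), *Kcnd3* by -7.22 ± 0.15 (adjusted p = 8.6e-46), *Kcnip1* by -7.10 ± 0.19 (adjusted p = 1.5e-40) and *Kcnip3* by -7.06 ± 0.14 (adjusted p = 3.6e-47). All 5 fell in 8 of 8 libraries. *Kcnma1* took another course. It had 298, 461 and 566 CPM in OPCs, 0, 40.5 and 147 CPM in committed OPCs and 67.4, 82.0 and 101 CPM in OLs, so that it fell at the first step (-3.37 ± 0.25, adjusted p = 2.3e-17) and was higher again in OLs (0.96 ± 0.31, adjusted p = 1.0e-02).

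Among the members called higher were OL genes of the comparison between types, which shares the control OLs and OPCs. *Kcna1* rose from 29.5, 44.4 and 77.3 CPM in OPCs through 29.3, 96.5 and 233 CPM in committed OPCs to 284, 361 and 429 CPM in OLs. It was called at both steps (1.38 ± 0.27, adjusted p = 4.3e-05, then 1.59 ± 0.19, adjusted p = 2.6e-10) and over both (2.97 ± 0.15, adjusted p = 1.5e-25). *Kcnab1* fell at the first step (-0.97 ± 0.29, adjusted p = 7.5e-03) and rose by 3.11 ± 0.23 at the second (adjusted p = 6.1e-18). *Kcnk13* did likewise, with -1.36 ± 0.33 (adjusted p = 9.0e-04) and 2.96 ± 0.26 (adjusted p = 5.4e-15). *Kcna6* (1.33 ± 0.23, adjusted p = 2.8e-06), *Kcnq3* (1.15 ± 0.13, adjusted p = 4.7e-11) and *Kcnj10* (0.77 ± 0.19, adjusted p = 5.3e-04) rose at the second step and were not called at the first.

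*Kcnj3*, *Kcna2*, *Kcnq5* and *Kcnj12* had their highest lineage level in committed OPCs. *Kcnj3* was at 129, 157 and 172 CPM in OPCs, 58.6, 468 and 756 CPM in committed OPCs and 2.88, 3.92 and 7.16 CPM in OLs. It rose in 7 of 8 libraries at the first step (1.45 ± 0.18, adjusted p = 1.9e-09) and then fell by 6.56 on the log2 scale (SE 0.22, adjusted p = 1.7e-34). *Kcna2* went from 18.8, 29.5 and 37.0 CPM through 31.5, 71.1 and 128 CPM to 13.4, 20.2 and 26.2 CPM, with a rise in 8 of 8 libraries (1.25 ± 0.32, adjusted p = 1.5e-03) and a fall by 1.8 (SE 0.29, adjusted p = 6.0e-07). *Kcnq5* was not called at the first step (0.34 ± 0.24, adjusted p = 0.34) and fell by 5.29 at the second (SE 0.30, adjusted p = 2.9e-23). *Kcnj12* (Kir2.2) was called higher in committed OPCs on 12 UMIs against 2 in OPCs (adjusted p = 1.5e-04). In the 4 control libraries alone, 1 of 25 members tested was called higher between OPC and committed OPC (7.57% of all genes were) and 5 between committed OPC and OL (13.9%). The first-step rises of *Kcna1* (adjusted p = 0.207) and *Kcna2* (adjusted p = 0.124) and the second-step rises of *Kcnma1* (adjusted p = 0.621) and *Kcnj10* (adjusted p = 0.326) were not called there.

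**Figure D3:**
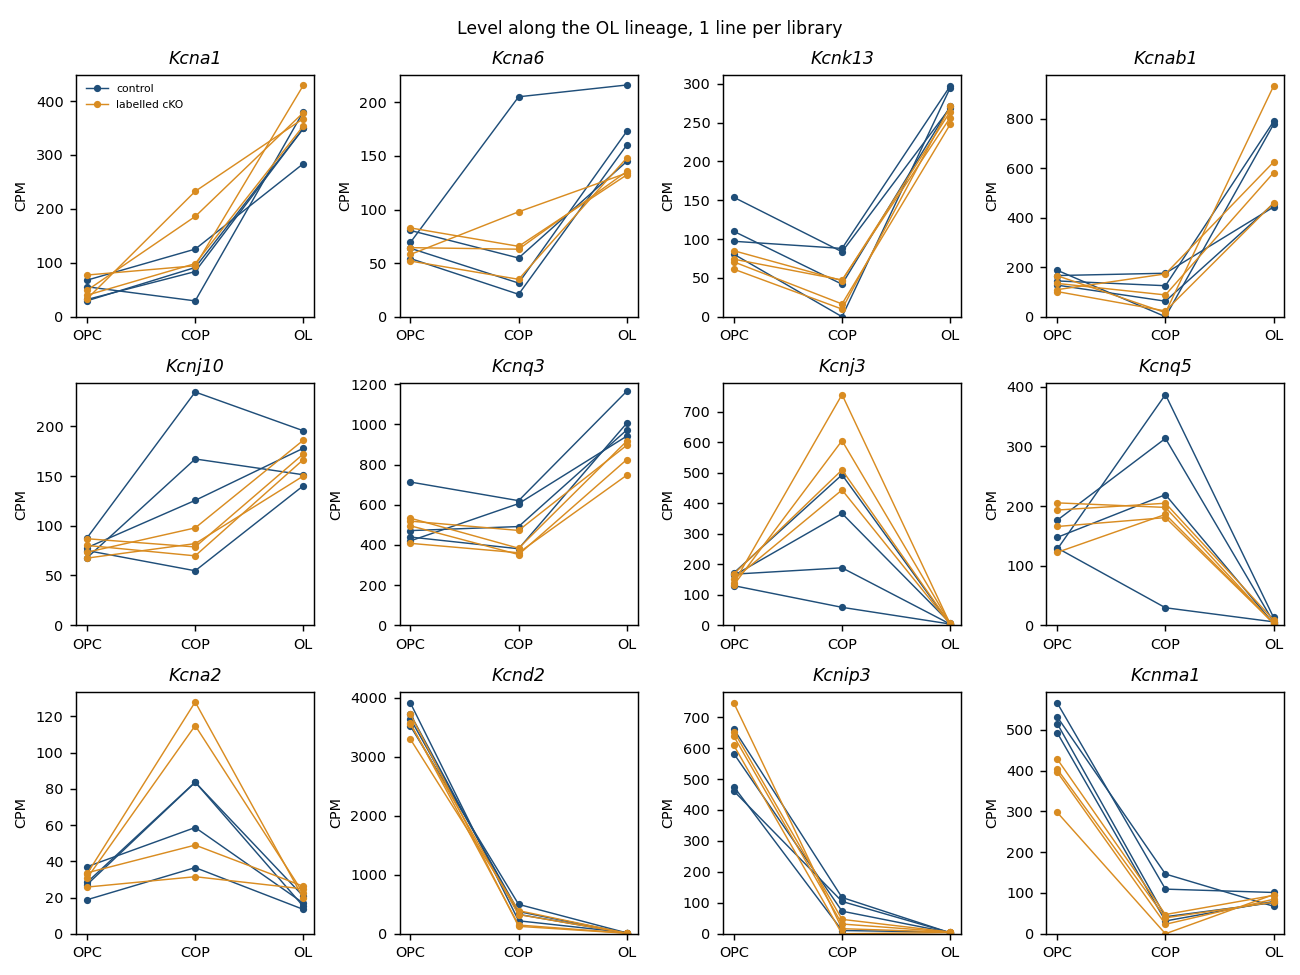
Levels of 12 potassium channel genes from OPC through committed OPC to OL, in CPM on a separate axis for each gene. Each line is a library (4 control in blue, 4 labelled cKO in orange); *Kcnd2* falls from 3296 to 3910 CPM in OPCs to 8.03 to 19.8 CPM in OLs, while *Kcna1* ends at 284 to 429 CPM and *Kcnj3* peaks in committed OPCs in 7 of 8 libraries.

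Within OLs, nuclei were ranked in each library by a score, the level of *Trf*, *Apod* and *Klk6*, markers of late OLs, minus that of the myelin genes *Mbp*, *Mog* and *Mal*, and the upper tertile was compared with the lower tertile. Of 27 members among 13043 genes, 3 were called higher (background 2.83%) and 0 lower (1.4%, with 4 at an unadjusted p under 0.05, as were 10.5% of all genes, and 0 called by DESeq2). *Kcnn3* had 97 UMIs in the upper and 25 in the lower tertile of the 8 libraries (1.98 ± 0.31, adjusted p = 9.0e-07). *Kcnb2* differed by 1.01 ± 0.19 (adjusted p = 5.4e-05) and *Kcnj12* by 0.93 ± 0.31 (adjusted p = 3.4e-02). *Kcnj12* was not called with DESeq2 (adjusted p = 0.259) or in 6 of the 8 fits that each left out a library. Without the library as a block 0 of the 16 members tested were called (1.67% of all genes higher), and with nuclei thinned to 1000 UMIs 0 of 15 (1.84%), and neither fit tested *Kcnn3* or *Kcnj12*. With the ambient profile subtracted 1 of 20 was called higher (2.4%), *Kcnn3*, and *Kcnb2* was lost (adjusted p = 0.0593). The control libraries alone gave 1 of 20 higher (2.32%), *Kcnb2*, and 1 lower (1.35%), *Kcnma1*. The estimated share of ambient RNA was higher in the upper than in the lower tertile in 8 of 8 libraries, at 0.126 to 0.226 against 0.111 to 0.192, and its part in the result was not tested beyond this subtraction. That share is estimated from astrocyte markers, so their summed level given below is not a separate observation. The call of *Kcnb2* was lost without the OL cluster led by fibroblast genes (0.13, adjusted p = 0.883), of which 38 nuclei lay in the upper and 19 in the lower tertile, and with clusters at a lower resolution (0.09, adjusted p = 0.92). The other 2 were called without that cluster as well. Markers of fibroblasts, where *Kcnb2* is high, moved with the score: their summed level was 254 to 497 CPM in the upper and 204 to 304 CPM in the lower tertile of the control libraries, and those of astrocytes, where *Kcnn3* is high, 349 to 462 against 301 to 428 CPM. Their part in the result was not tested. The OL gene *Kcna1* was lower in the upper tertile (-0.33 ± 0.04, adjusted p = 6.9e-11), as was *Kcnma1* (-0.44 ± 0.06, adjusted p = 1.4e-08), whose levels were higher in neurons, OPCs and myeloid cells than in OLs, both under the limit of 0.5 for a call.

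Between genotypes, 50 members were tested in at least 1 cell type: 34 in OLs, 24 in OPCs, 35 in astrocytes, 23 in fibroblasts, 25 in neurons, 12 in myeloid cells, 4 in committed OPCs and 1 each in endothelial and T cells. With edgeR 0 members were called in any type, where 0.0819% of all genes were in OLs, 0.34% in OPCs, 0.0222% in neurons and 0% in each of the other types. At an unadjusted p under 0.05 there were 4 members in OLs (8.95% of all genes tested were), 6 in OPCs (7.54%), 3 in astrocytes (7.55%), 2 in fibroblasts (3.92%), 2 in myeloid cells (5.34%), 1 each in T cells (4.78%), committed OPCs (9.29%) and neurons (5.56%) and 0 in endothelial cells (4.2%). DESeq2 called 0 as well. It gave an adjusted p for 29 of the 34 members in OLs, 13 of the 24 in OPCs, 9 of the 35 in astrocytes and 3 of the 4 in committed OPCs. It had 4 in OLs (8.22% of all genes) and 5 in OPCs (4.34%) at an unadjusted p under 0.05. The median log2 difference of members was -0.13 in OLs, against 0.01 over all genes tested, and -0.19 in OPCs, against 0.006. In astrocytes it was -0.06 (0.008 over all genes) and in myeloid cells -0.11 (0.0007). Fibroblasts had 0.12 (0.004) and neurons 0.15 (0.03), on the other side of 0. The types left had at most 4 members tested.

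The members with the smallest p in OLs included *Kcna2*, *Kcna6*, *Kcnq3* and *Kcnd2*. *Kcna2* was at 13.4, 20.7, 15.1 and 16.9 CPM in the control libraries, against 22.4, 26.2, 24.7 and 19.6 CPM in those labelled cKO (0.49 ± 0.14, adjusted p = 0.384), with 1 library overlapping on each side. *Kcna6* was at 145, 160, 173 and 216 CPM against 132, 134, 135 and 148 CPM (-0.35 ± 0.11, adjusted p = 0.431), also overlapping. *Kcnq3* was at 1166, 942, 973 and 1006 CPM against 747, 825, 897 and 917 CPM (-0.29 ± 0.11, adjusted p = 0.497), and these did not overlap. It was the only 1 of the 34 members lower without overlap, against 3.17% of all genes tested. The clusters named OL differed in genotype, from 23.4% to 71.8% control nuclei, and their part in these values was not tested. *Kcnd2* (-0.52 ± 0.22, adjusted p = 0.540) was under 20 CPM. OPC markers, of a type where *Kcnd2* is high, summed to 322 to 417 CPM in control OLs and 302 to 335 CPM in cKO OLs. Their part in the *Kcnd2* value was not tested. Of the other OL genes, *Kcna1* differed by 0.15 ± 0.11 (adjusted p = 0.694), *Kcnk13* by -0.14 ± 0.08 (adjusted p = 0.626), *Kcnab1* by 0.06 ± 0.24 (adjusted p = 0.963) and *Kcnj10* by 0.01 ± 0.11 (adjusted p = 0.990).

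In OPCs all 6 members with an unadjusted p under 0.05 had lower values in the libraries labelled cKO, where 3.75% of all genes tested were lower at such a p. Of the 24 members 4 were lower without overlap (2.28% of all genes). Marker sums moved as well: OPC markers were at 15553 to 19609 CPM in control and 14783 to 16869 CPM in cKO OPCs, and OL markers at 2437 to 3376 against 2806 to 4101 CPM. Their part in these values was not tested. *Kcnma1* was at 566, 515, 493 and 532 CPM in control and at 298, 404, 428 and 396 CPM in cKO libraries (-0.48 ± 0.14, adjusted p = 0.195), without overlap. *Kcnh8* was at 552, 429, 440 and 532 CPM against 417, 370, 377 and 387 CPM (-0.36 ± 0.14, adjusted p = 0.494) and *Kcnh5* at 231, 226, 241 and 240 CPM against 147, 168, 148 and 219 CPM (-0.46 ± 0.17, adjusted p = 0.462), both without overlap. *Kcnip1* (-0.51 ± 0.19, adjusted p = 0.460) and *Kcnk13* (-0.57 ± 0.23, adjusted p = 0.494) overlapped. The leading OPC gene *Kcnd2* was at 3519 to 3910 CPM against 3296 to 3723 CPM. In neurons *Kcnh8* was at 107, 50.8, 148 and 101 CPM against 25.9, 40.4, 8.67 and 28.1 CPM (-1.89 ± 0.40, adjusted p = 0.26), and it was called only without the filter on low counts (-1.99, adjusted p = 1.6e-04). The neuron clusters differed in their libraries: of one with 31 nuclei 83.9% were control and 71.0% came from control replicate 3, and of one with 30 nuclei 30% were control and 63.3% came from cKO replicate 11. OPC markers, of a type where *Kcnh8* is high, summed to 1468 to 3045 CPM in control and 876 to 1959 CPM in cKO neurons. The part of either in the *Kcnh8* value was not tested. In myeloid cells *Kcnk6* was at 75.7 to 107 CPM against 57.2 to 77.6 CPM (-0.46 ± 0.22, adjusted p = 0.853) and *Kcnk13* at 234 to 308 CPM against 201 to 236 CPM (-0.34 ± 0.15, adjusted p = 0.853), which overlapped. A test of whether the genotype effect differed between OLs and astrocytes called 0 of 49 members (edgeR, background 0.0473%), with 5 at an unadjusted p under 0.05 (5.54% of all genes), led by *Kcna6* (-0.33 ± 0.10, adjusted p = 0.67), and DESeq2 called 0 with 1 such p (2.12%). Markers of other tissues moved with the genotype: hemoglobin and red cell genes summed to 1027 to 1942 CPM in OLs of control and 428 to 1111 CPM in those of cKO libraries, to 1039 to 1771 against 386 to 951 CPM in OPCs, and pituitary genes to 26.7 to 1045 against 2.46 to 18.9 CPM in OLs. Their part in these values was not tested.

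**Figure D4:**
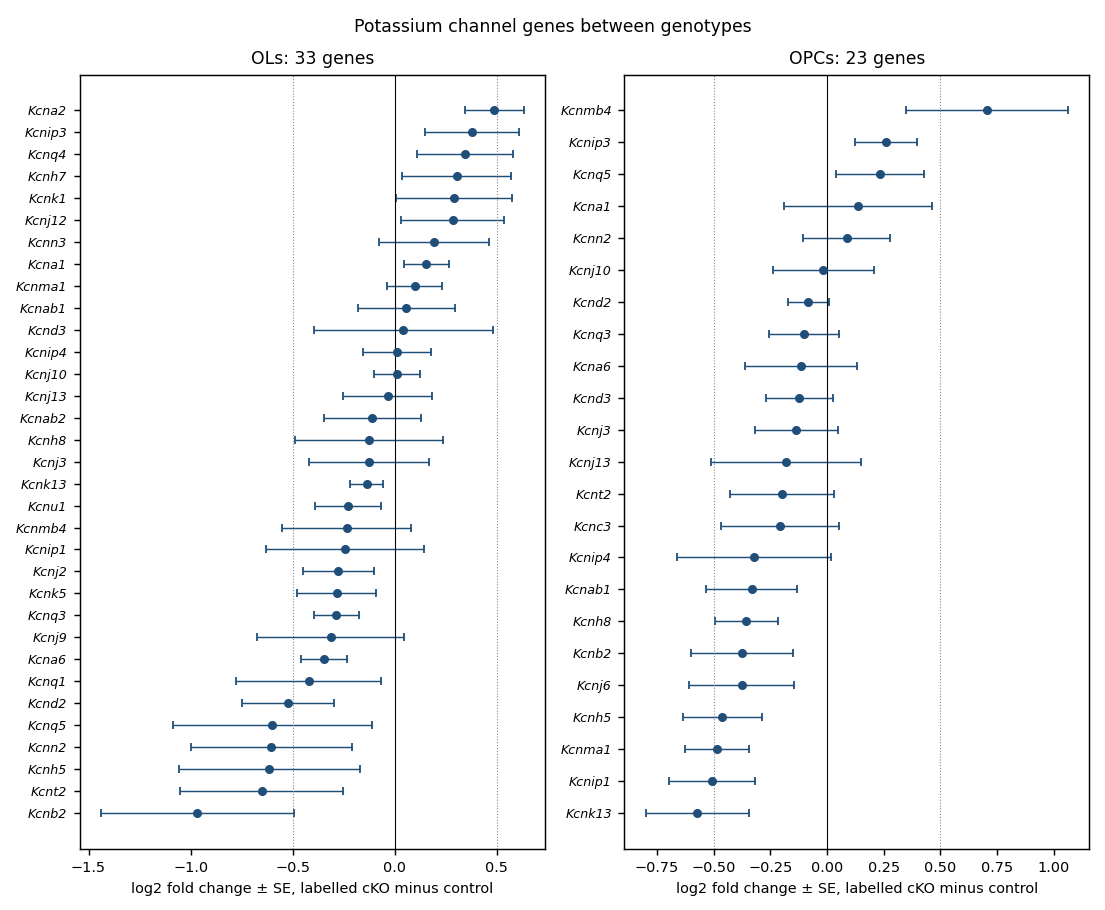
Difference between genotypes of tested potassium channel genes, as log2 of libraries labelled cKO over control with its SE, in OLs (33 of 34 genes, left) and OPCs (23 of 24 genes, right). Dotted lines mark the limits of 0.5; no gene passed the adjusted p of edgeR in either type.

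Of 39 genes that work with potassium channels, namely subunits of the sodium pump, cation-chloride cotransporters, channel accessory and scaffold proteins and HCN channels, 29 were tested between types. OLs had 10 called higher and 6 lower (27.9% and 11.7% of all genes tested were), astrocytes 11 and 6 (28.8% and 9.55%), OPCs 13 and 3 (21% and 5.84%) and neurons 13 and 5 (27.9% and 15.5%). In OLs, *Cntn2* (contactin 2, which holds Kv1 channels beside the node) had a mean of 500 CPM and a difference of 3.62 ± 0.11 (adjusted p = 8.9e-33). *Dlg2* (PSD-93, a scaffold of Kv1 channels) differed by 2.95 ± 0.15, *Lgi3*, a secreted protein of the LGI family, by 2.73 ± 0.12, *Hcn2* by 2.55 ± 0.12 and the cotransporter *Slc12a2* (NKCC1) by 2.40 ± 0.09. Set against OPCs alone, *Dlg2* was lower in OLs in 8 of 8 libraries of both genotypes. *Cntn2*, *Lgi3*, *Hcn2* and *Slc12a2* were higher in OLs in 8 of 8. In astrocytes, the pump subunit *Fxyd7* was at 109 ± 22.5 CPM (SD, 4 control libraries, adjusted p = 1.4e-22), with no UMI in committed OPCs. Other genes called higher were the pump subunits *Atp1b2* (2.58 ± 0.11) and *Fxyd1* (1.82 ± 0.10) and the dystrophin-complex gene *Dtna* (3.10 ± 0.12, adjusted p = 9.1e-28). Between genotypes edgeR called 0 of 28 genes of this list in OLs (0.0819% of all genes), with 2 at an unadjusted p under 0.05 (8.95%), and DESeq2 called 1 (0.385%). *Hcn2*, a channel for sodium and potassium that opens on hyperpolarization, was at 151 ± 19.7 CPM in control and 219 ± 18.6 CPM in cKO OLs (SD, 4 libraries each, log2 difference 0.52 ± 0.11, adjusted p = 0.192 with edgeR and 0.0169 with DESeq2).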

How the data were processed

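The deposited counts are UMIs that the authors obtained with Cell Ranger 7.0.0 on GRCm39, without normalization and for every barcode. Their later removal of ambient RNA is not in them. Nuclei were called from the counts with an OrdMag threshold and a test against empty droplets (false discovery rate 0.01), filtered at 200 genes and 5% mitochondrial counts, and cleared of doublets with Scrublet scores. They were clustered with scanpy 1.11.5 and leidenalg 0.10.2 (Python 3.11.15, 3000 variable genes, 30 components, resolution 3), leaving out 134 genes, the members among them. Clusters were named from at least 3 raised markers, with thresholds set after the clusters were seen.

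Counts were summed per library and type (at least 10 nuclei and 1000 counts in at least 3 libraries) and tested with edgeR 4.0.16 in R 4.3.3 (quasi-likelihood, TMM, filterByExpr, Benjamini-Hochberg over all genes tested). SEs were derived from the test statistic. The library was a block within comparisons of types, lineage and score. DESeq2 1.42.0 and limma 3.58.1 were alternatives, as was leaving out an OL cluster led by fibroblast genes (chosen after seeing the data, like limma). Simulated counts were used to test the main edgeR fits, DESeq2 between genotypes and limma between cell types, but not the other alternatives. The simulated counts held planted rises and no type without counts, so they do not check the calls of lower. Depth per type sets the precision, from 85038 UMIs in control T cells to 24090358 in control OLs. Named were members with a textbook role in these tissues, and by adjusted p up to 3 more per type, up to 5 per direction of a lineage or score contrast, the 5 smallest p between genotypes in OLs and up to 5 partner genes; others were added after their values were seen. Members, lists and tests were chosen with earlier results of these data known. The libraries are pools of mice, and all p-values are two-sided. Values of a few single genes and a sequence are not reported here, while counts over the members include all of them.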

Additional observations from a re-analysis of the deposited data

Results flagged for a closer look

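Of 64 groups of 4 libraries examined for a library far from the others, 4 met the criterion of Dixon's test, about the number that chance gives at 1 in 20. *Kcna3* in control myeloid cells was at 3.715 CPM in 1 library and at 0 in the other 3, from 1 UMI in all. *Kcnc2* in neurons labelled cKO was at 312.3 CPM in 1 library and at 454.7 to 478.4 CPM in the others. *Kcnj8* in endothelial cells labelled cKO was at 101.3 CPM in 1 library and at 0 to 12.87 CPM in the others, and *Kcnn4* in the same type and genotype was at 6.437 CPM in 1 library and at 0 in the others, again from 1 UMI. A single UMI meets the criterion by construction when the other libraries are at 0, so these 2 say nothing about a library.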

How the results depend on the processing

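Of 1909 gene results by alternative in the comparison of cell types, 1749 kept direction and call, 158 kept the direction but lost the call, and 2 turned: *Kcnip3* in astrocytes, -1.14 to 0.0342 over the fits that each left out a control library (the latter without replicate 1), and *Kcnk13* in neurons, 0.77 in the libraries labelled cKO. In the lineage 1144 of 1187 were kept, for the score 371 of 386, between genotypes 2729 of 2732 (calls gained by *Hcn2* and *Olig2* in OLs with DESeq2 and *Kcnh8* in neurons without the filter) and for the difference between OLs and astrocytes 534 of 534. Outside the comparison of cell types, a result called in neither fit counted as kept whatever its direction. The main fit called none of these genes between genotypes or for that difference, so both counts compare calls and not directions. Counts of members called lower moved most. With DESeq2 they were 23 in OLs (32.4% of all genes tested were called lower), 19 in astrocytes (19%), 12 in endothelial cells (9.46%), 17 in fibroblasts (19.9%) and 22 in myeloid cells (25.3%). With limma they were 15 (10.8%), 8 (6.56%), 25 (23.8%), 12 (7.77%) and 20 (16.4%) in these types, 2 in OPCs (8.13%), 24 in T cells (48.5%) and 14 in committed OPCs (35.6%). Thinning to 1000 UMIs, which leaves fewer counts and 22 members tested, gave 2 lower in OLs (8% of all genes), 16 higher (22.4%) and 1 lower (2.9%) in OPCs, 1 higher in T cells (6.07%), 2 lower in astrocytes (6.47%), 3 higher (6.07%) and 0 lower (1.35%) in committed OPCs, 1 higher (13.8%) and 2 lower (6.43%) in endothelial cells, 3 (29.7%) and 3 (6.68%) in fibroblasts, 3 (27.1%) and 2 (8.92%) in myeloid cells and 16 (21.7%) and 0 (7.18%) in neurons. In the lineage it gave 13 of 21 lower from OPC to OL (25.9%), 1 higher (5.45%) and 13 lower (16.6%) from OPC to committed OPC, and for the score 0. Without a filter on low counts, which tests 89 members, 24 were higher in astrocytes (23.2%), 6 in endothelial cells (7%), 10 in myeloid cells (13.2%) and 50 in neurons (17.3%), 6 were lower in T cells (2.87%) and 1 in OPCs (2.14%), and 1 was called between genotypes. The last count, between genotypes, and the counts that follow are given here without the share of all genes called in the same fit. A moved count is thus not a result about the members. Upper-quartile scaling and resolution 1.5 each gave 1 lower in OPCs. Nuclei with at least 1000 UMIs gave 0 lower in committed OPCs and 3 in myeloid cells. Ambient subtraction gave 1 lower in T cells and 1 higher by score. The libraries labelled cKO gave 1 higher in T cells, and lower 1 in OPCs, 0 in committed OPCs, 10 in myeloid cells and 1 in neurons. The control libraries alone gave 5 higher from committed OPC to OL, 1 from OPC to committed OPC and, by score, 1 higher and 1 lower. Leaving out a library gave 3 to 5 lower in OLs (3 without control replicate 1 or 3), 1 to 2 higher and 1 to 3 lower in T cells (1 and 1 without replicate 3, 1 lower without replicate 2), 3 to 5 lower in astrocytes (3 without replicate 4), 0 to 1 lower in committed OPCs (0 without replicate 1, 2 or 4), 1 to 4 higher in endothelial cells (1 without replicate 1, 4 without replicate 2 or 4) and 3 to 6 lower (4 without replicate 2, 3 without replicate 3), 2 to 5 lower in myeloid cells (2 without replicate 3, 3 without replicate 4) and 1 to 2 lower in neurons (1 without replicate 3). Without the replicate block 0 members were called by score, and no other count moved by over 1.5 times; the genotypes share no replicate numbers, so no pairing between them was made. Without the OL cluster led by fibroblast genes no count moved by over 1.5 times, and the call of *Kcnb2* by score was lost. Resolution 1.5 named no committed OPCs, so those contrasts have no value there. The cause of these shifts was not tested beyond the numbers of counts and genes tested. Committed OPCs, T cells and endothelial cells had 64, 72 and 119 control nuclei (64 of the T cells in the 3 libraries that entered sums), and mural cells had too few for replicated sums.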
